A study of Mus musculus with 4 samples.

Results

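The genes described here are 40 genes of histone acetylation, chosen by name for their function and matched exactly by symbol among the 53379 genes of the deposited tables. They comprise 10 acetyltransferases (writers), 9 genes of bromodomain, PHD finger and ING proteins (readers), 11 zinc-dependent deacetylases, 5 sirtuins, and 5 scaffold genes of deacetylase complexes. Deacetylases, sirtuins and scaffolds together are called the 21 erasers. Each symbol matched 1 gene, and all 40 genes passed the filter on low counts, as did 19148 genes in all.

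RNA came from DKO741 cells, a *Terc*-/- line made from E14 mouse embryonic stem cells (mESCs) by 2 rounds of targeting with the TR-10 construct, between which Cre recombinase had removed the neo gene. Pre-ALT cells at PD100 were compared with post-ALT cells at PD800, with 2 libraries each, where ALT is the lengthening of telomeres without telomerase and PD is the population doubling (the labels also speak of passages). Both groups lacked *Terc*, they came from 1 line, no *Terc*+/+ library was analysed here, and the study calls the libraries of a group biological duplicates. Stocks were kept on mouse embryonic fibroblast feeders, and nucleic acids were taken from feeder-free cells.

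Acetylation of histone lysines loosens the grip of the histone tail on DNA and marks active promoters and enhancers. Writers transfer the acetyl group from acetyl-CoA, bromodomains bind the acetylated lysine while ING proteins bring writers and erasers to methylated histone H3, and deacetylases remove the group within complexes such as NuRD and SIN3. In mESCs, acetylation by EP300 and CREBBP marks active enhancers, and NuRD and SIN3 complexes take part in the control of pluripotency genes.

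The 4 libraries held between 32454121 and 38492149 expected counts, which are RSEM's estimates of the reads of each gene. *Terc*, the targeted gene, had 1 count in PD100 replicate 1 and 0 in the other 3 libraries. Across genes, log2 CPM (counts per 1000000 of the TMM-scaled library size) correlated at 0.984 and 0.992 between replicates and at 0.935 to 0.944 between groups. Mitochondrial genes and small non-coding RNAs held 22.04% to 23.4% of the counts at PD100 and 27.7% to 28.3% at PD800. The 6 stem cell markers *Pou5f1*, *Sox2*, *Nanog*, *Zfp42*, *Dppa5a* and *Esrrb* were all detected, with a summed level of 1618 to 1975 CPM at PD100 and 3146 to 3273 CPM at PD800; of the 6, *Nanog* and *Esrrb* rose and the other 4 did not pass the test. The 6 primitive endoderm markers (*Gata4*, *Gata6*, *Sox17*, *Sox7*, *Pdgfra* and *Dab2*) all fell, from a summed 121 to 141 CPM to 10.4 to 10.8 CPM. Of the 6 fibroblast markers, 5 fell, from a sum over all 6 of 46.7 to 69.3 CPM to 12.9 to 14.0 CPM, and no marker of either list was at 0 in any library. The part of these cell type markers in the changes below was not tested. In bulk RNA, fewer cells of a type and less RNA per cell cannot be told apart.

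From PD100 to PD800, these 40 genes shifted in both directions, and none passed the test with a fitted change of counts above 2-fold. Of the 40 genes, 14 changed by edgeR's quasi-likelihood test, with a Benjamini-Hochberg adjusted p under 0.01. The 8 higher genes (20% of 40) were *Kat2b*, *Kat6b*, *Kat8*, *Ing4*, *Hdac3*, *Hdac6*, *Sirt3* and *Mta1*, where 13.1% of all tested genes were higher. The 6 lower genes (15.0%) were *Kat6a*, *Hdac2*, *Hdac5*, *Sirt1*, *Mta3* and *Sin3b*, where 15.4% of all tested genes were lower. Among the 13429 tested genes with a mean level at or above that of the lowest of the 40 (1.61 CPM), 16.8% were higher and 18.3% were lower, so that the counts lay close to the background in either direction. None of the 40 changed by more than 2-fold, against 6.28% of all tested genes higher and 8.81% lower by that rule. The counts depended on the scale: limma on log2(TPM + 1) or log2(TPM + 0.1) called 1 of the 40 higher and 5 lower, with *Sin3b* over 2-fold lower. Of all 19148 tested genes, these fits called 712 and 706 higher and 2327 and 2410 lower. A fit without 1 library leaves a group of 1, so that the spread comes from the other group alone. Only the size of the change is read from such fits. In them the median log2 fold change of the 40 lay between -0.039 and 0.045.

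The log2 fold changes (PD800 over PD100) of the 40 genes ran from -0.90 for *Sin3b* to 0.91 for *Ing4*, with a median of 0.03 against 0.01 for all tested genes. The median size of the change was 0.32 on the log2 scale, against 0.39 for the tested genes at or above the level of the lowest of the 40, and 30 of the 40 fitted changes were under 1.5-fold. The 2 libraries of PD100 did not overlap those of PD800 in CPM for 33 of the 40 genes, while 73.8% of all tested genes did not overlap. Replicates lay close together, with a median difference in log2 CPM of 0.14 at PD100 and of 0.06 at PD800. The widest gaps were 0.41 for *Ing3* at PD100 and 0.70 for *Hdac9* at PD800.

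**Figure D1:**
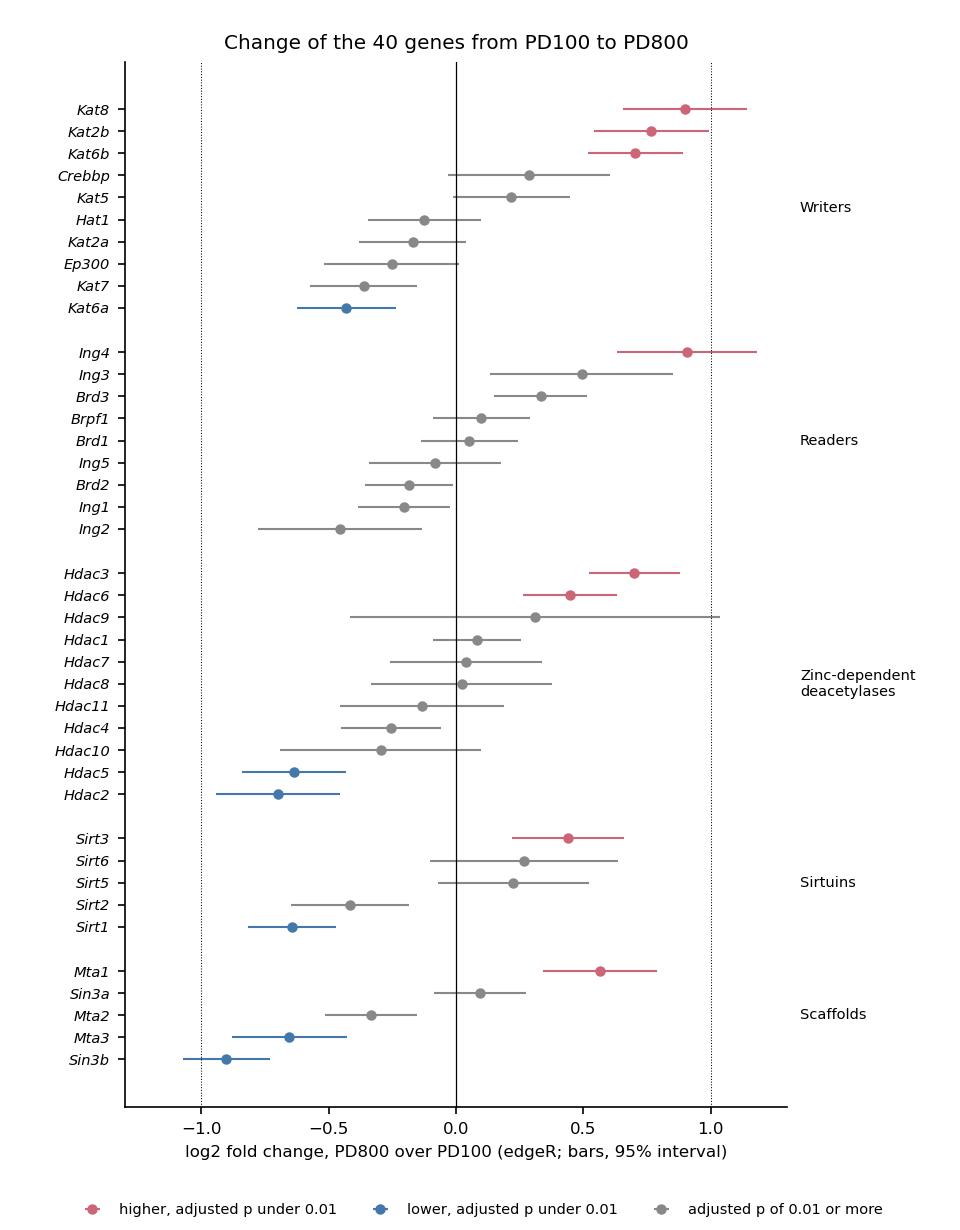
Log2 fold change of each of the 40 genes (PD800 over PD100, edgeR; bars, 95% interval), by class and in order of the change, with dotted lines at 2-fold. The 8 red points are higher and the 6 blue points lower at an adjusted p under 0.01, and each class but the readers holds both colours.

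The windows upstream of the genes at the ends of this range are shown so that the sequence before the gene that fell most and the gene that rose most can be read beside their values. *Sin3b* (ENSMUSG00000031622.16) lies on the plus strand of chromosome 8 of GRCm38 from 72723285 to 72758201, and *Ing4* (ENSMUSG00000030330.15) on the plus strand of chromosome 6 from 125039760 to 125049265. Sequences are from RefSeq (GRCm38.p6) at chr8:72723020-72723269 and chr6:125039598-125039759, where the *Ing4* window ends before the first base that GENCODE M21 gives the gene. Capitals mark matches to the motifs named below on either strand: a GC box, read on the minus strand, in *Sin3b*, and a CRE and 2 GC boxes in *Ing4*. The searched window of *Ing4* also holds an ETS match, on the minus strand, past the part printed here.
Sin3b: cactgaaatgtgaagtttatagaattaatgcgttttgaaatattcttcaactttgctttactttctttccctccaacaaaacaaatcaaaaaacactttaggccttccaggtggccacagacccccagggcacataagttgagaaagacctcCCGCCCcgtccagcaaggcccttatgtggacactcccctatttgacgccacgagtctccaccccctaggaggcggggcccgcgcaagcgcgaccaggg
Ing4: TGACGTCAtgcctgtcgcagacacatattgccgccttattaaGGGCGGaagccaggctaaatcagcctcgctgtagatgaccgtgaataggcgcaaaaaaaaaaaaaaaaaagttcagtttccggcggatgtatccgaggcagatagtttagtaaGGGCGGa
The 250 bases before the RefSeq start were available for 35 of the 40 genes (*Kat6a*, *Hdac1*, *Hdac3*, *Hdac10* and *Mta3* had no match), and 5 motifs were searched on both strands. The GC box, GGGCGG, stood in 25 of the 35 windows (71.4%), against 57.4% of the windows of 12056 tested genes and 40% of all 20030 windows. CCAAT stood in 16 windows (45.7%, against 36.3% of tested genes) and the ETS motif CCGGAAG in 7 (20%, against 12.9%). The E-box CACGTG stood in 3 (8.57%, against 8.21%) and the CRE TGACGTCA in 2 (5.71%, against 2.61%). The median window of the 35 held 18 CpG and was 61.6% G or C, where the tested genes had medians of 15 CpG and 59.6%. By direction, the GC box stood in 5 of the 7 windows of higher genes and in all 4 windows of lower genes. The windows of *Kat6b* (higher) and *Sirt1* (lower), both counted with a GC box, lie 18336 and 42669 bases from the start that GENCODE M21 gives. Those of *Brd3* and *Hdac4* lie 32264 and 15358 bases from it. All counts are of matches of letters and not of sites of binding.

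Levels of different genes can be set side by side only per length, as TPM (transcript abundance scaled to a sum of 1000000 in each library, as deposited). The mean TPM over the 4 libraries ran from 0.32 for *Hdac9* to 111 for *Hat1*, with a median of 12.4 against 2.79 for all tested genes, and 35 of the 40 genes lay above that median. *Hat1*, which acetylates newly made histone H4, was the most abundant in both groups, followed by *Sin3b* and *Brd2* at PD100 and by *Brd2* and *Kat6b* at PD800. As a ratio of the highest to the lowest level, the zinc-dependent deacetylases spanned the widest range of means over the 4 libraries, from the class I gene *Hdac2* at 22.8 to 45.6 TPM down to the class IIa gene *Hdac9* at 0.24 to 0.43 TPM.

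**Figure D2:**
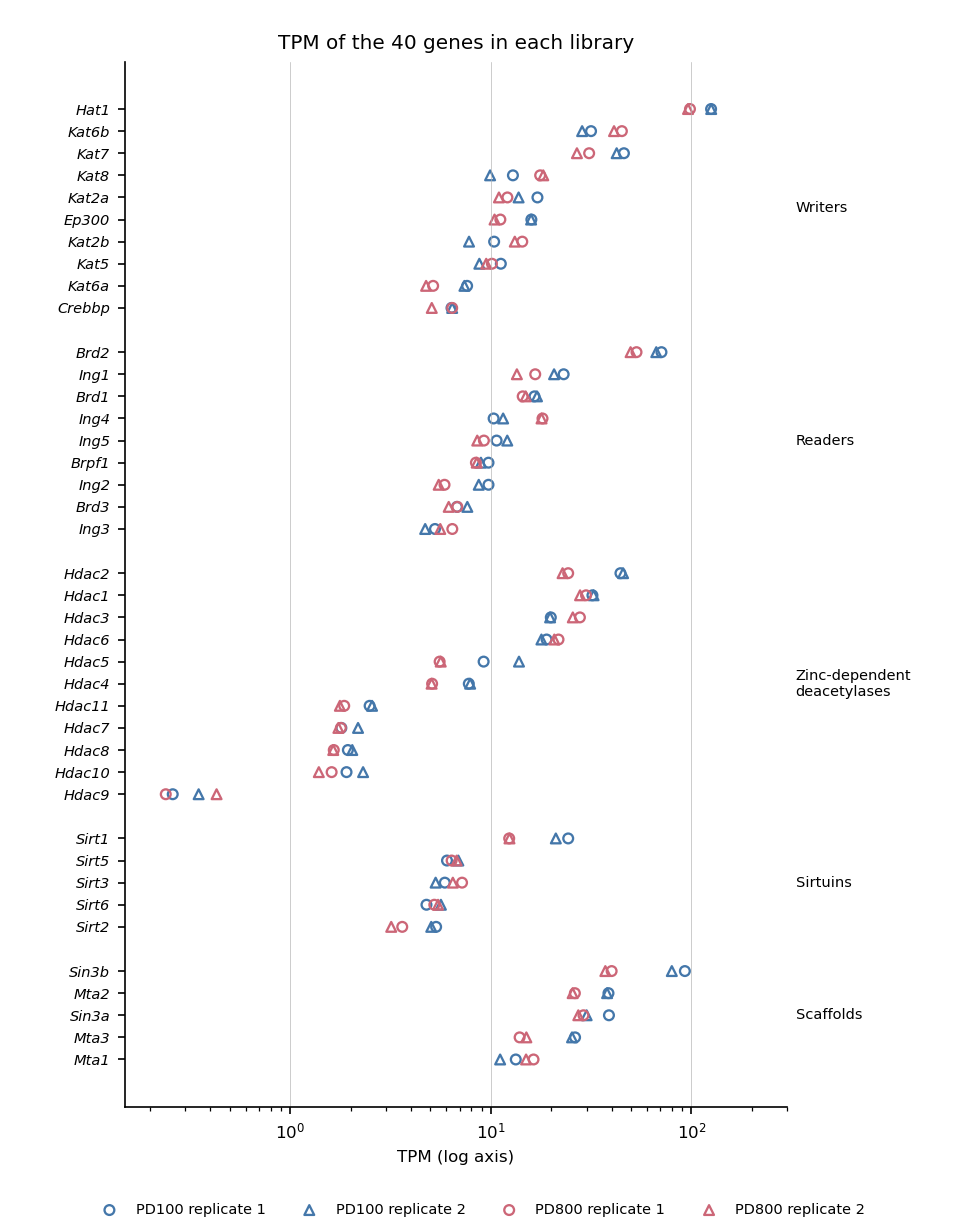
TPM of the 40 genes in each library on a log axis, by class and in order of the mean (blue, PD100; red, PD800; circles, replicate 1; triangles, replicate 2). *Hat1* lies between 96.2 and 125.4 TPM and *Hdac9* between 0.24 and 0.43 TPM, while PD800 points lie to the left of PD100 points for *Sin3b* and *Hdac2* and to the right for *Ing4* and *Kat8*.

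On the TPM scale, values at PD800 lay lower at the median. The median log2 ratio of mean TPM was -0.25 over all tested genes and -0.28 over the 40, of which 28 were below 0 and 12 above. Protein-coding genes outside the mitochondrial genome held 33.7% and 31.8% of TPM at PD100 and 28.5% and 27.4% at PD800. The log2 ratio of TPM had the opposite sign to the fitted change of counts for 9 of the 40 genes and for 0 of the 14 that changed. With the TPM of those protein-coding genes scaled to a sum of 1000000, the 10 writers summed to 844 and 837 at PD100 and to 881 and 864 at PD800. The 9 readers summed to 484 and 497 at PD100 and to 488 and 477 at PD800, overlapping between the groups. The 21 erasers summed to 1178 and 1179 at PD100 and to 989 and 984 at PD800. Without *Sin3b*, the erasers came to 903 and 929 at PD100 and to 848 and 848 at PD800. The scaffolds went from 623 and 579 to 440 and 439, the sirtuins from 138 and 138 to 122 and 125, and the zinc-dependent deacetylases overlapped at 418 and 462 against 426 and 419.

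Among the 10 writers, 3 rose (*Kat8*, *Kat2b* and *Kat6b*), 1 fell (*Kat6a*) and 6 did not pass the test, with a median log2 fold change of 0.05. *Kat8* (MOF, the main acetyltransferase of histone H4 lysine 16; chromosome 7, 127912516 to 127925837 on the plus strand) had 21.3 and 18.4 CPM at PD100 and 35.8 and 38.2 CPM at PD800. Both PD800 libraries lay above both PD100 libraries, with a log2 fold change of 0.90 ± 0.10 (SE, n = 2 libraries a group; edgeR's adjusted p = 0.00095). *Kat8* overlaps *Prss8* on the opposite strand, which had a mean of 18.8 CPM at PD100 and 4.39 CPM at PD800. The paper shows its RNA-seq by direction of transcription, but whether counting used strand is not given in the sources used here. Reads of the overlap therefore cannot be told apart. Of the 40 genes, 8 overlap another gene with over 10% of their own CPM in either group. Among them are *Kat5* (with *Rnaseh2c*), *Hdac7* (with *Slc48a1*), *Sirt2* and *Sirt3*. *Kat2b* (PCAF, a catalytic subunit of SAGA-type complexes) had 55.8 and 48.6 CPM at PD100 and 90.2 and 87.5 CPM at PD800, a log2 fold change of 0.77 ± 0.09 (edgeR's adjusted p = 0.0013). *Kat6b* (MORF, which acetylates histone H3) was the most abundant of the 4 changed writers in TPM, with 137 and 128 CPM at PD100 and 220 and 213 CPM at PD800. Its log2 fold change was 0.70 ± 0.08 (edgeR's adjusted p = 0.000912).

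*Kat6a* (MOZ), the paralogue of *Kat6b*, went the other way, with 87.7 and 93.9 CPM at PD100 and 69.4 and 65.3 CPM at PD800, a log2 fold change of -0.43 ± 0.08 (edgeR's adjusted p = 0.0066). The other writers did not pass the test. *Hat1* had 125.25 and 125.42 TPM at PD100 and 98.3 and 96.2 TPM at PD800, and its log2 fold change in counts was -0.13 (95% interval -0.35 to 0.10). *Crebbp*, which with *Ep300* encodes the acetyltransferases of enhancers and had the lowest mean TPM of the writers at PD100 (at PD800 it was *Kat6a*), had 6.37 and 6.42 TPM at PD100 and 6.42 and 5.08 TPM at PD800, and its log2 fold change was 0.29 against -0.25 for *Ep300*. *Kat7* (HBO1, which acetylates histone H3 lysine 14 and H4) was at -0.36 with an adjusted p of 0.0169 by edgeR. Of the alternatives with all libraries, it passed by DESeq2, without a filter on low counts and with a replicate block, and missed the threshold in the others. *Kat2a* (GCN5, the paralogue of *Kat2b*) was at -0.17 and *Kat5* (TIP60) at 0.22. Over the 12 alternatives, the log2 fold change ran from 0.621 to 1.011 for *Kat8* and from 0.56 to 0.874 for *Kat2b*. It ran from 0.505 to 0.758 for *Kat6b* and from -0.589 to -0.389 for *Kat6a*. These genes passed in each alternative on counts with all libraries, and missed the threshold in both limma fits on TPM.

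In the readers, 1 of 9 rose, 0 fell and 8 did not pass the test, with a median log2 fold change of 0.05. *Ing4*, which encodes an ING protein that binds trimethylated histone H3 lysine 4 and is a subunit of HBO1 complexes, had 19.8 and 24.0 CPM at PD100 and 39.8 and 42.3 CPM at PD800. The groups lay far apart beside the spread of their libraries, with a fitted 1.88-fold rise (95% interval 1.55 to 2.27; log2 fold change 0.91 ± 0.11, edgeR's adjusted p = 0.00147). The other ING genes had log2 fold changes of 0.49 (*Ing3*, a TIP60 complex subunit), -0.08 (*Ing5*), -0.21 (*Ing1*) and -0.46 (*Ing2*), the latter both known as subunits of SIN3 complexes. *Ing2*, the lowest reader by change, had 13.1 and 16.5 CPM at PD100 and 10.6 and 10.9 CPM at PD800, with an adjusted p of 0.0328 by edgeR. *Ing3*, the reader with the lowest mean TPM at PD100 (at PD800 it was *Ing2*), had 5.27 and 4.71 TPM at PD100 and 6.43 and 5.6 TPM at PD800. *Brd2*, a BET protein and the most abundant reader, had 70.9 and 66.8 TPM at PD100 and 53.2 and 49.7 TPM at PD800, and its log2 fold change in counts was -0.18 (edgeR's adjusted p = 0.0807). The other BET gene of the list, *Brd3*, was at 0.33 with an adjusted p of 0.0136 by edgeR. *Brpf1* and *Brd1*, scaffolds of MOZ, MORF and HBO1 complexes, were at 0.10 (95% interval -0.09 to 0.29) and 0.05 (-0.14 to 0.24).

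Of the 11 zinc-dependent deacetylases, 2 rose, 2 fell and 7 did not pass the test, with a median log2 fold change of 0.02. Both directions occurred within class I, the nuclear deacetylases. *Hdac2*, a catalytic subunit of NuRD and SIN3 complexes (chromosome 10, 36974544 to 37001889 on the plus strand), had 101.3 and 119 CPM at PD100 and 66.4 and 69.3 CPM at PD800. Its log2 fold change was -0.70 ± 0.10 (edgeR's adjusted p = 0.00247). *Hdac3*, the catalytic subunit of NCoR and SMRT complexes, had 47.2 and 48.8 CPM at PD100 and 78.8 and 77.1 CPM at PD800, a log2 fold change of 0.70 ± 0.07 (edgeR's adjusted p = 0.000765). *Hdac1*, the close paralogue of *Hdac2* in the same complexes, was at 0.08 (95% interval -0.09 to 0.26), and *Hdac8* at 0.02 (-0.33 to 0.38).

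In class IIa, whose members move between nucleus and cytoplasm, *Hdac5* had 29.6 and 31.4 CPM at PD100 and 20.2 and 19.1 CPM at PD800, a log2 fold change of -0.64 ± 0.08 (edgeR's adjusted p = 0.00185). *Hdac4* was at -0.26 (adjusted p = 0.0443 by edgeR) and *Hdac7* at 0.04. *Hdac9* had 0.26 and 0.35 TPM at PD100 and 0.24 and 0.43 TPM at PD800, from 49 to 71 counts a library, and its 95% interval of -0.42 to 1.04 spans changes in both directions. In class IIb, *Hdac6*, a mainly cytoplasmic deacetylase of tubulin, had 82.7 and 88.4 CPM at PD100 and 116 and 117.5 CPM at PD800, a log2 fold change of 0.45 ± 0.08 (edgeR's adjusted p = 0.00464). *Hdac10*, a polyamine deacetylase, was at -0.29 (95% interval -0.69 to 0.10), and *Hdac11*, the sole class IV gene, at -0.13 (-0.46 to 0.19). Over the 12 alternatives, the log2 fold change ran from -0.931 to -0.6 for *Hdac2* and from 0.411 to 0.716 for *Hdac3*. It ran from -0.999 to -0.592 for *Hdac5* and from 0.195 to 0.475 for *Hdac6*. With all libraries, *Hdac2* passed in each alternative, while *Hdac3*, *Hdac5* and *Hdac6* missed the threshold in both limma fits on TPM.

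Among the 5 sirtuins, the NAD-dependent deacylases, 1 rose, 1 fell and 3 did not pass the test, with a median log2 fold change of 0.22. *Sirt1*, a nuclear deacetylase of histones and transcription factors and the most abundant of the 5, had 84.2 and 83.0 CPM at PD100 and 53.2 and 53.9 CPM at PD800. Replicates nearly coincided, and the log2 fold change was -0.64 ± 0.07 (edgeR's adjusted p = 0.000937). *Sirt3*, a mitochondrial deacetylase, had 9.44 and 9.53 CPM at PD100 and 12.8 and 12.98 CPM at PD800, a log2 fold change of 0.44 ± 0.09 that lay just inside the threshold (edgeR's adjusted p = 0.00972). *Sirt3* overlaps *Psmd13* and *Ric8a* on the opposite strand, whose means went from 105 to 130 CPM and from 32.3 to 48.8 CPM. *Sirt2*, a mainly cytoplasmic enzyme with the lowest mean TPM of the 5, had 5.34 and 5.05 TPM at PD100 and 3.62 and 3.19 TPM at PD800, and its log2 fold change in counts was -0.42 (edgeR's adjusted p = 0.0145). *Sirt2* overlaps *Nfkbib* on the opposite strand, whose mean went from 15.6 to 12.4 CPM. *Sirt5*, a mitochondrial desuccinylase, was at 0.22 (95% interval -0.07 to 0.52), and *Sirt6*, a nuclear deacetylase of histone H3, at 0.27 (-0.10 to 0.64). Over the 12 alternatives the log2 fold change ran from -0.867 to -0.629 for *Sirt1* and from 0.245 to 0.454 for *Sirt3*. With all libraries, *Sirt1* passed in each alternative. *Sirt3* missed the threshold by DESeq2, with DESeq2's size factors, with at least 10 counts in every library and in both limma fits on TPM.

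The scaffolds had 1 gene higher, 2 lower and 2 that did not pass the test, with a median log2 fold change of -0.33. *Sin3b*, a scaffold of SIN3 complexes, fell most of all 40 genes. It had 136 and 135 CPM at PD100 and 72.9 and 72.2 CPM at PD800, so that the groups were far apart and the replicates within 1 CPM of each other. The fitted fall was 1.87-fold (95% interval 1.66 to 2.10; log2 fold change -0.90 ± 0.07, edgeR's adjusted p = 0.000284). Its paralogue *Sin3a* was at 0.09 (95% interval -0.09 to 0.27). Among the MTA genes, which encode mutually exclusive subunits of NuRD, *Mta3* had 51.5 and 55.3 CPM at PD100 and 31.9 and 35.9 CPM at PD800, a log2 fold change of -0.66 ± 0.09 (edgeR's adjusted p = 0.00242). *Mta1*, the scaffold with the lowest mean TPM at PD100 (at PD800 it was *Mta3*), went up from 39.8 and 35.7 CPM to 58.0 and 53.7 CPM, a log2 fold change of 0.57 ± 0.09 (edgeR's adjusted p = 0.00403). *Mta2*, the most abundant MTA gene, was at -0.33 (edgeR's adjusted p = 0.0134). With all libraries, it passed in the alternatives other than DESeq2's size factors and upper-quartile normalisation. Over the 12 alternatives, the log2 fold change ran from -0.833 to -0.572 for *Mta3*, from 0.337 to 0.649 for *Mta1* and from -1.154 to -0.888 for *Sin3b*. With all libraries, *Mta3* and *Sin3b* passed in each alternative, while *Mta1* missed the threshold in both limma fits on TPM.

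Within families, the make-up in TPM shifted between PD100 and PD800. *Hdac2* made up 45.1% and 45.7% of the TPM of the 4 class I deacetylases at PD100 and 29.1% and 29.3% at PD800, while *Hdac3* went from 20.3% and 19.8% to 33.3% and 32.9%. The leading class I gene was thus *Hdac2* at PD100 and *Hdac1* at PD800, at 35.7% and 35.8%. In the MYST acetyltransferases (*Kat5*, *Kat6a*, *Kat6b*, *Kat7* and *Kat8*), the summed TPM overlapped between the groups, at 109 and 96.99 against 109 and 100.5. Inside that sum, *Kat7* led at PD100 with 42.1% and 43.7%, and *Kat6b* led at PD800 with 41.4% and 40.9%. *Ing4* went from 17.5% and 19.97% of the ING family to 32.2% and 35.1%, and *Ing1*, which led at PD100 with 39.0% and 35.8%, to 29.6% and 26.4%. *Sirt1* went from 52.4% and 48.0% of the 5 sirtuins to 35.5% and 36.2%. Shares of a family sum to a whole, so that a rise of 1 gene lowers the shares of the others.

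**Figure D3:**
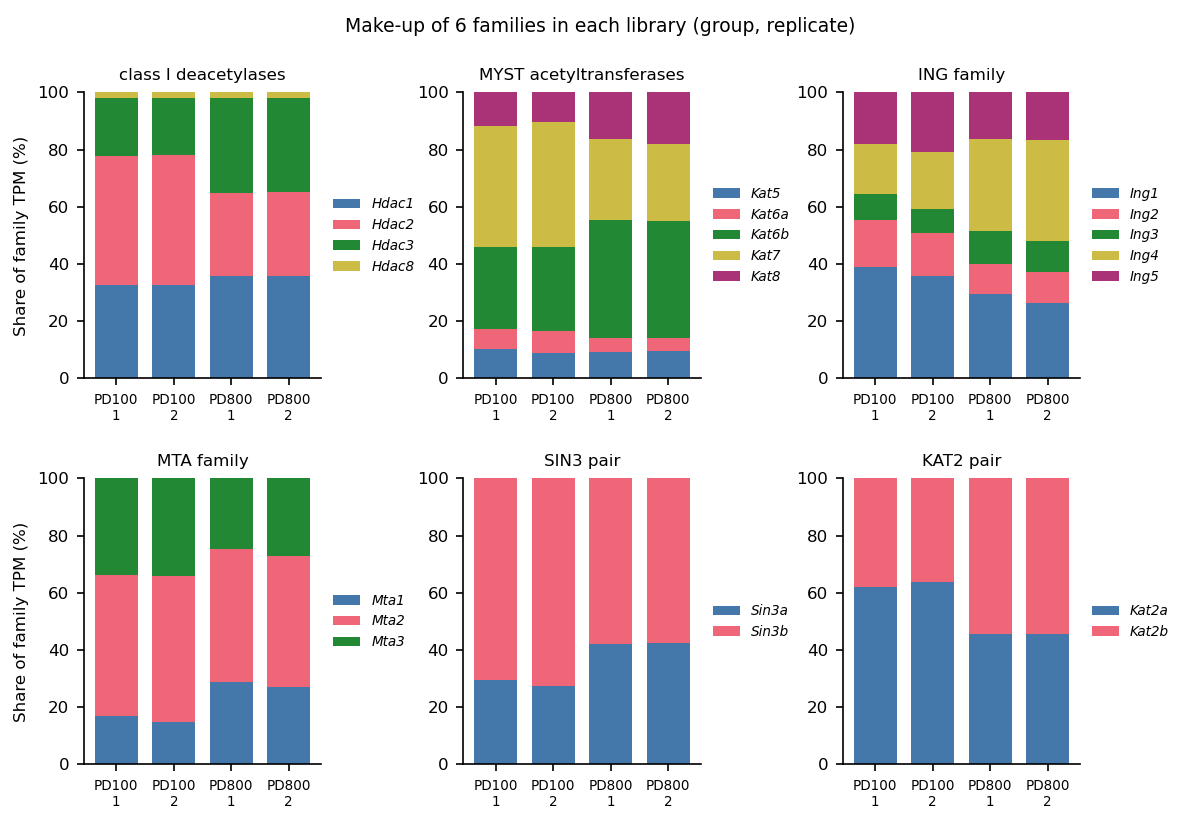
Share of family TPM held by each gene in each library, for 6 families whose bars each sum to 100%. *Hdac2* holds 45.1% and 45.7% of class I at PD100 and 29.1% and 29.3% at PD800, and *Kat2b* goes from 37.8% and 36.2% of the KAT2 pair to 54.3% and 54.5%.

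Ratios of paralogues in TPM carried the same contrast. The ratio of *Kat2a* to *Kat2b*, alternative catalytic subunits of the same complexes, was 1.64 and 1.77 at PD100 and 0.843 and 0.834 at PD800. The ratio of *Hdac1* to *Hdac2* was 0.725 and 0.713 at PD100 and 1.23 and 1.22 at PD800. For *Kat6a* to *Kat6b* it was 0.241 and 0.259 at PD100 and 0.115 and 0.116 at PD800. The order of these pairs thus turned for *Kat2a* and *Kat2b* and for *Hdac1* and *Hdac2*, whereas *Kat6b* lay above *Kat6a* in all 4 libraries. *Ing4* to *Ing5* went from 0.966 and 0.954 to 1.96 and 2.09, *Mta1* to *Mta3* from 0.507 and 0.438 to 1.17 and 0.997, and *Sin3a* to *Sin3b* from 0.419 and 0.376 to 0.724 and 0.733. *Brpf1* to *Brd1* overlapped, at 0.590 and 0.526 against 0.585 and 0.570. Of the 15 pairs compared, 13 did not overlap between the groups, and *Hdac7* to *Hdac9* was the other pair that did. Among single genes, 73.8% of all tested genes did not overlap in CPM, and the share over other pairs of genes was not computed. The ratios are a description: the smallest p that an exact two-sided permutation test of 2 libraries against 2 can give is 0.333, and no other test of a ratio was run.

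The 40 genes were also set beside their neighbours on the chromosome, since the study describes copy number changes in these cells. After ALT began, it places them mainly toward the ends of the long arms. The 14 genes that changed lay between 4.44 Mb (*Sirt3*) and 163 Mb (*Hdac6*) from the last annotated base of their chromosome. For *Mta1* and *Mta3* the distance was 6.88 and 11.1 Mb, and for *Sin3b*, *Sirt1* and *Hdac2* 56.5, 67.2 and 93.6 Mb. DNA copy number itself was not analysed here. The sign of a gene's change was that of the median of its 40 nearest tested genes for 31 of the 40 (77.5%), against 64.9% of 19110 tested genes. For the 14 that changed it was so for 12 (85.7%), against 73.7% of the 5449 changed genes of the whole table that had neighbours. *Hdac2*, at -0.70, lay among genes with a median of -0.69, *Sirt1*, at -0.64, among genes at -0.77, and *Mta3*, at -0.66, among genes at -0.96. *Mta1* and *Sirt3*, at 0.57 and 0.44, lay among genes at 0.62 and 0.47. *Sin3b* was at -0.90 beside neighbours at -0.47, *Ing4* at 0.91 beside 0.54, and *Kat8* at 0.90 beside 0.57. *Kat6b* and *Hdac6* stood against their neighbours, at 0.70 beside -0.52 and at 0.45 beside -0.15. *Hdac3* had the highest neighbour median of the 40, and at 0.70 lay below it, beside 1.51. Its 40 neighbours all lay within 0.424 Mb, and the other tested genes of chromosome 18 had a median of 0.20. On chromosome 8, all 4 genes (*Kat6a*, *Ing1*, *Ing2* and *Sin3b*) were below 0, as was the median of the other tested genes of that chromosome, at -0.45. The part of the neighbourhood in the changes was not tested.

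**Figure D4:**
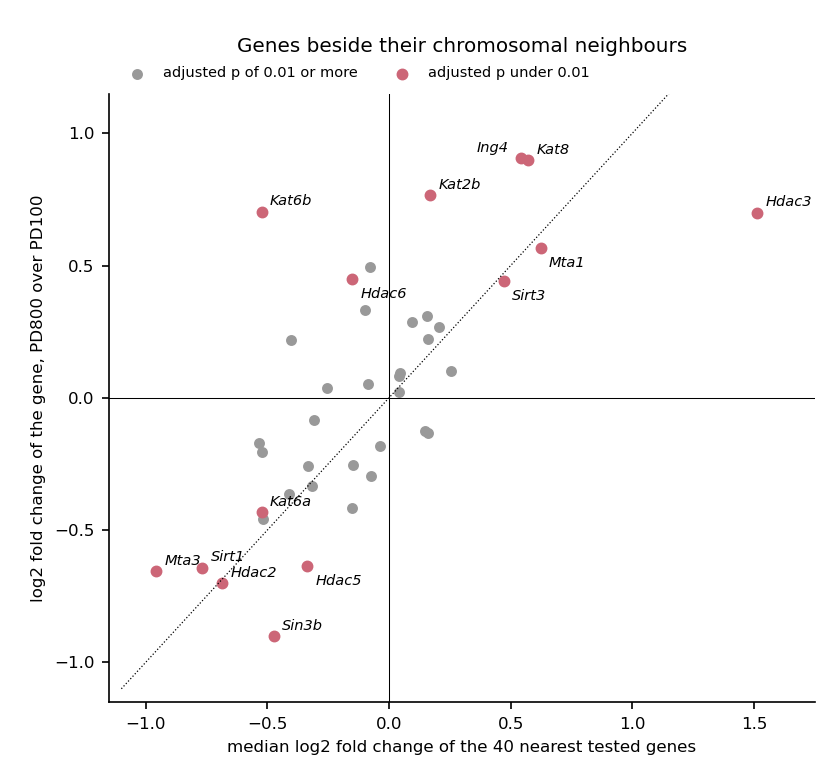
Log2 fold change of each of the 40 genes (vertical) against the median log2 fold change of its 40 nearest tested genes on the same chromosome (horizontal), with a dotted line where both are equal; red, adjusted p under 0.01. Of the 14 red points, 12 lie in the lower left or upper right, and *Kat6b* and *Hdac6* lie in the upper left.

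A further 81 genes of the pathway, listed for their function as partner subunits, other readers or suppliers of acetyl-CoA, were all found and tested. Of these, 14 rose, 10 fell and 57 did not pass the test, with a median log2 fold change of 0.10. The share that rose was 17.3%, against 13.1% of all tested genes, and the share that fell 12.3%, against 15.4%. By more than 2-fold, 5 rose (6.17%, against 6.28%) and 4 fell (4.94%, against 8.81%). The bromodomain gene *Brwd1* had 154 and 185 CPM at PD100 and 674 and 692 CPM at PD800, a log2 fold change of 2.01 ± 0.11 (edgeR's adjusted p = 0.000104). It lies on chromosome 16, from 95992092 to 96082526. The study reports a copy number gain in the terminal region of that chromosome at PD800. Whether *Brwd1* lies in the gained region, and the part of copy number in its change, were not tested. *Yeats4*, a reader subunit of TIP60 complexes, was at 1.82 and *Acss2*, an acetyl-CoA synthetase, at 1.52. *Sirt7*, a nuclear sirtuin that is not among the 5 above, was at 1.299 and *Rcor1*, the CoREST scaffold of *Hdac1* and *Hdac2*, at 1.097. The MSL complex subunit *Msl3* had 19.3 and 16.0 CPM at PD100 and 5.34 and 4.14 CPM at PD800, a log2 fold change of -1.89 ± 0.16 (edgeR's adjusted p = 0.000383). *Jade3*, a scaffold of HBO1 complexes, was at -1.52, *Baz1a* (ACF1, a remodeller subunit with a bromodomain) at -1.43 and *Taf5l*, a SAGA subunit, at -1.26.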

How the data were processed

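RNA of DKO741 mESCs at PD100 and PD800 (2 libraries each, grouped by their labels) was analysed from gene tables. The paper describes paired-end reads aligned to mm10. The submitters' processing notes name STAR 2.5.3a, RSEM 1.3.0 and DESeq2 1.18.1. The authors deposited RSEM's expected counts, which are not scaled for depth and divide reads shared between genes, and TPM, which RSEM scaled for transcript length and to a fixed total. The deposited files also give an effective length per gene, used here as a value only. The annotation release and the strand setting of the counting are not given in the sources used here, though the paper shows its RNA-seq by direction of transcription. The labels name total RNA, while the paper speaks of mRNA, which bears on the shares of mitochondrial and small non-coding RNA and on TPM. Of 53379 gene identifiers, 53274 were found in GENCODE M21 (GRCm38), matched without version numbers.

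Rounded expected counts went into edgeR 4.0.16 (R 4.3.3), with genes kept by filterByExpr at a minimum of 10 counts, TMM factors, the quasi-likelihood test over all 19148 genes that passed, and Benjamini-Hochberg adjustment. Changed means an adjusted p under 0.01, and over 2-fold a log2 fold change beyond 1 as well. The SE is the log2 fold change over the square root of F, and 95% intervals use the fit's degrees of freedom. The procedure was tested on simulated data. Alternatives were DESeq2 1.42.0, its size factors, upper-quartile normalisation, limma 3.58.1 on log2(TPM + 1) and log2(TPM + 0.1), a block for the replicate number, no filter, a filter of 10 counts in all libraries, a threshold of 0.05, folds measured from the median gene, and fits without 1 library.

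The 40 genes, the classes and the other lists were chosen with earlier results of these data known. Library values were to be given for genes over 2-fold and, in each class, for the highest and lowest by change and by mean TPM; those of the other changed genes, and the families, were added after their values were seen. Counting depth limits *Hdac9* most.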

Additional observations from a re-analysis of the deposited data

How the results depend on the processing

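The 14 changed genes kept their sign over all 12 alternatives. Of the 14, 13 passed in each of the 6 alternatives on counts with all libraries (*Sirt3* did not), and 5 in both limma fits on TPM (*Ing4*, *Hdac2*, *Sirt1*, *Mta3* and *Sin3b*). A fit without 1 library leaves a group of 1 whose spread comes from the other group alone, so its calls are not given. Of the 26 genes outside the threshold, *Brd3*, *Crebbp*, *Ing2*, *Ing3*, *Kat7*, *Mta2* and *Sirt2* passed in at least 1 alternative with all libraries. Against 8 higher and 6 lower of the 40, limma gave 1 and 5 with either pseudocount, the fit without a filter 10 and 10, and the threshold of 0.05 gave 10 and 11. With each library left out, 2 to 12 were higher and 1 to 12 lower; over 2-fold, against 0, 0 to 1 were higher, and limma gave 1 lower on either pseudocount. For all genes higher (2513), no filter gave 3991, limma 712 and 706, the threshold of 0.05 gave 4224, and leaving out libraries 1175 to 3994; for all genes lower (2943), the threshold of 0.05 gave 4515 and leaving out libraries 1478 to 4193. Over 2-fold, limma gave 297 and 533 higher against 1202, and 920 lower on log2(TPM + 1) against 1686. On TPM, where the median of all genes lay at -0.12 and -0.21 with the 2 pseudocounts, the medians were -0.23 and -0.27 for the 40, -0.25 and -0.26 for writers, -0.18 and -0.19 for readers, and -0.27 and -0.28 for erasers. Leaving out a library moved the median of the 40 to between -0.039 and 0.045 and that of writers to between 0.025 and 0.119, while that of readers ran from -0.005 to 0.107 and that of erasers from -0.073 to 0.026, so that the medians of the 40, readers and erasers did not keep their sign. The cause of these differences was not tested.

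Same-numbered libraries share only a number in the labels, and their deviations correlated at 0.27 across genes. With the number as a replicate block, 11 of the 40 were higher and 10 lower, and of all genes 3854 were higher and 4125 lower. Depth limits *Hdac9*, at 49 to 71 counts a library.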

Other observations

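The genes that supply acetyl-CoA in the nucleus and cytoplasm changed in opposite directions. *Acly*, which makes acetyl-CoA from citrate, fell from 426.5 and 414 CPM to 299.8 and 291 CPM (log2 fold change -0.51 ± 0.08; edgeR's adjusted p = 0.00314). *Acss2*, which makes it from acetate, rose from 4.88 and 5.09 CPM to 14.0 and 14.6 CPM (1.52 ± 0.10; edgeR's adjusted p = 0.00017). In TPM, *Acly* stayed far above *Acss2*, at 90.8 and 88.8 against 1.39 and 1.36 at PD100, and at 57.3 and 54.3 against 3.29 and 3.24 at PD800.

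Partner subunits of the writers and erasers, chosen after their values were seen, also moved both ways. *Rcor1* and *Rcor3*, alternative CoREST scaffolds, rose by 1.097 and 0.88 on the log2 scale, while the third, *Rcor2*, was at 0.06 (edgeR's adjusted p = 0.623) and was the most abundant of these in TPM, with 26.1 and 26.4 at PD100 and 22.7 and 23.6 at PD800. Of the SAGA-type subunits, *Tada2a* and *Taf5l* were at -0.73 and -1.26 while *Sgf29* was at 0.76, and the other 8 of the list (*Tada1*, *Tada2b*, *Tada3*, *Supt3*, *Supt7l*, *Supt20*, *Taf6l* and *Trrap*) did not pass the test, at -0.35 to 0.24. *Meaf6*, a subunit of the MOZ, MORF and HBO1 complexes, rose by 0.97, and the NuRD subunit *Gatad2a* and the SIN3 subunit *Sap18* were at -0.73 and -0.57. The other NuRD and SIN3 subunits of the list did not pass the test, and ran from -0.43 for *Brms1* to 0.41 for *Sap130*. Among them were *Rbbp7* at -0.36, *Mbd3* at -0.20, *Suds3* at -0.04, *Chd4* at 0.03 and *Rbbp4* at 0.16.

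RSEM's effective length, which follows the mix of transcripts it assigned to a gene, varied most for *Hdac5*, at 2494 and 1601 bases at PD100 and 2341 and 2060 bases at PD800. Its TPM was 9.21 and 13.8 at PD100, where its CPM values were 29.6 and 31.4. For *Crebbp* the effective length was 6485 bases in PD100 replicate 2 and 8711 to 8823 bases in the other libraries. For *Kat6a* it was 8352 to 8959 bases and for *Kat6b* 3140 to 3371 bases. In CPM, *Kat6b* also lay above *Kat6a*, but by less than in TPM, with 137 and 128 against 87.7 and 93.9 at PD100. For *Sin3b* and *Ing4* the effective length stayed within 1136 to 1194 and 1414 to 1486 bases. For *Sin3a* it was 3482 to 4154 bases. In CPM, *Sin3a* lay above *Sin3b* in every library, with 174 and 169 against 136 and 135 at PD100. The rank of *Sin3b* in TPM, its ratio to *Sin3a* and the sums of scaffolds and erasers thus rest on these lengths.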
